A study of Mus musculus with 9 samples.

Results

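The 9 genes described here encode chemokine ligands, and they are all the genes of the deposited sample table whose symbol is Ccl, Cxcl or Xcl followed by a number. They are Cxcl2, Cxcl3, Ccl3, Ccl4, Xcl1, Cxcl9, Cxcl10, Ccl6 and Ccl22, 9 of the 2889 genes listed, and 9 of 9 passed the filter on low values (a mean normalized count of 1 or more over all samples), as did 2868 genes in all, which were tested together. A list of 40 mouse chemokine ligand symbols was also looked up, some of them of another form, such as Pf4 and Cx3cl1. The other 31 have no value in the sample table and are not analysed here. All 2889 genes of that table are called changed in the authors' deposited tables, on these same samples. The calls are for adipocyte or stromal conditioned medium against unconditioned medium. Those called genes number 3495 distinct gene IDs, and why the others have no value per sample is not known. The authors' adipocyte table holds 7 of the 9 (Cxcl2, Cxcl3, Ccl3, Ccl4, Xcl1, Ccl6 and Ccl22) and their stromal table holds 4 (Cxcl2, Ccl3, Cxcl9 and Cxcl10), so Cxcl2 and Ccl3 are in both. The 9 genes were thus selected on measured values, those of these 2 comparisons. Such values are given as a description, with no p-value. Adjusted p-values are given for adipocyte against stromal medium, in the same 9 samples that the selection used. Each gene entered through a comparison that shares the adipocyte or the stromal samples, so these p-values are not independent of the selection. They set each difference beside its spread and are not separate support for it. The member nearest to the authors' threshold was Cxcl9, with an adjusted p of 0.000133 in the authors' deposited table for stromal medium, and ligands beyond the threshold have no value to set beside it.

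Chemokines are small secreted proteins that bind receptors coupled to G proteins on leukocytes and direct the migration of those cells. The CC, CXC and XC classes are named for the number and spacing of cysteines near the start of the protein. Activated T cells are a known source of Ccl3, Ccl4 and Xcl1, interferon gamma induces Cxcl9 and Cxcl10 in many cell types, and Ccl6 and Ccl22 are known mainly from myeloid cells, in the mouse dendritic cells and macrophages among them.

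The RNA came from splenic CD3+ T cells of wild-type (genotype label WT) C57BL/6 mice, obtained by negative selection, in which the unwanted cell types are pulled out. Cells of each of 3 mice were kept for 4 h at 37 °C and 5% CO2 in adipocyte conditioned medium, in stromal conditioned medium or in unconditioned medium (RPMI), which gave 3 samples per medium and 9 in all. All groups thus share the strain, the genotype, the selection and the incubation, and the labels do not say which adipocytes or stromal cells conditioned the media. The study set out to find the transcriptional responses of T cells to each conditioned medium.

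Reads on the listed genes came to between 6522742 and 13758643 per sample, and the 9 chemokine genes took 0.0763%, 0.0534% and 0.0756% of them in adipocyte medium, 0.0440%, 0.0317% and 0.0375% in stromal medium and 0.0136%, 0.0165% and 0.0169% in unconditioned medium (mice 1, 2 and 3). These shares cover genes selected on the same samples and are a description. Of 16 T cell markers, Cd3e, Cd3g, Cd8a and Cd8b1 are in the table. The table lists only genes called changed, so these 4 cannot check the T cell label or the purity of the cells. Summed over these 4, normalized counts ran between 32578 and 35237 in adipocyte, 72070 and 73297 in stromal and 86513 and 97969 in unconditioned samples, and no sample was at 0. In bulk samples such as these, fewer cells of a type and less RNA per cell cannot be told apart. The median log2 difference over all tested genes was -1.03 for adipocyte against unconditioned medium, -0.17 for stromal against unconditioned medium and -0.60 for adipocyte against stromal medium. Rescaling by the median-of-ratios method over the listed genes moved these medians by 0.93, 0.36 and 0.57.

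Cxcl2 and Cxcl3, neutrophil-attracting ligands of the receptor CXCR2, both had their highest counts in adipocyte medium. Cxcl2 had 816.9, 846.0 and 1108.9 normalized counts in adipocyte medium, 49.2, 51.4 and 55.1 in stromal medium and 17.1, 9.56 and 6.21 in unconditioned medium. The 3 groups stood apart from each other without overlap. The means in adipocyte, stromal and unconditioned medium were 924 ± 161, 51.9 ± 2.95 and 11.0 ± 5.60 (SD, n = 3 each), so adipocyte medium was at 84.2 times and stromal medium at 4.73 times the unconditioned mean. Only 30 reads in all lay behind the unconditioned mean, against 2643 in adipocyte medium. Against stromal medium, Cxcl2 was higher in adipocyte medium by 4.12 on the log2 scale (SE 0.31, limma adjusted p = 1.73e-07), with 4.03, 4.01 and 4.31 within the 3 mice.

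Cxcl3 had 358.1, 258.3 and 159.2 normalized counts in adipocyte medium, 31.7, 29.0 and 16.8 in stromal medium and 14.3, 1.74 and 16.0 in unconditioned medium. Adipocyte medium was again above both other groups in every sample, and stromal medium lay only just above unconditioned medium, with mouse 3 at almost the same level in both. Mean counts in adipocyte, stromal and unconditioned medium were 259 ± 99.4, 25.8 ± 7.97 and 10.7 ± 7.77 (SD, n = 3 each). The log2 difference was 4.79 for adipocyte and 1.54 for stromal medium against unconditioned medium (SE 0.61 for both), and without the unconditioned sample of mouse 2, which had 2 reads, these were 3.94 and 0.69. Cxcl3 was higher in adipocyte than in stromal medium by 3.25 (SE 0.61, limma adjusted p = 0.00027).

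The promoters of these neighbouring genes on chromosome 5 are shown because they share one motif at nearly the same place. In RefSeq's mouse annotation (GRCm38.p6), Cxcl15 and Cxcl1 are the 2 protein-coding genes between Cxcl3 and Cxcl2. The windows run from 250 bases before the start of the gene to 50 after it, and lie at chr5:90903649-90903948 for Cxcl2 and chr5:90785851-90786150 for Cxcl3, both on the plus strand. Capitals mark matches to the NF-kB consensus, a gamma-activated site (TTCNNNGAA) or the core of the interferon-stimulated response element, searched on both strands, with N any base.
Cxcl2: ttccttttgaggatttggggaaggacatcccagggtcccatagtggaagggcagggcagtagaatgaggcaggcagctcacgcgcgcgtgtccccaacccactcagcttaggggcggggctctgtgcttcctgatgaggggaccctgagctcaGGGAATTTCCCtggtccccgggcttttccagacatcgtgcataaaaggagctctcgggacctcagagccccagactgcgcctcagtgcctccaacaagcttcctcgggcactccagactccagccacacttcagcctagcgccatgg
Cxcl3: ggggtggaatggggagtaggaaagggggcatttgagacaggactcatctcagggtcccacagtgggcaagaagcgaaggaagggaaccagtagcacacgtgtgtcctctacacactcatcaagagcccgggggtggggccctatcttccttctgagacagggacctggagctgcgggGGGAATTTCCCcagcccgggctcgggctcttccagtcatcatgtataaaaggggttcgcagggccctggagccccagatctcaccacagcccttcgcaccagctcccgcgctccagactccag
Each window holds the NF-kB consensus on both strands at once, as overlapping matches 1 base apart that begin 97 and 96 bases before the start in Cxcl2 and 73 and 72 bases before it in Cxcl3. RefSeq promoter windows were found for 8 of the 9 genes, all but Ccl4. The NF-kB consensus was in 3 of those 8 (Cxcl2, Cxcl3 and Cxcl10) and in 4.51% of all 32851 promoter windows of the same length. The longest run of bases that the Cxcl2 and Cxcl3 windows share is 13 bases. These matches describe the sequence and do not show binding. The transcripts of both genes have 126 stretches of 50 bases in common, 5.84% of those in Cxcl2 and 3.51% of those in Cxcl3, so reads there could be assigned to either gene.

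Ccl3 and Ccl4, inflammatory CC chemokines that T cells release on activation, stood in the same order of media with higher counts. Ccl3 had 1932.9, 1044.0 and 2053.6 normalized counts in adipocyte medium, 238.7, 266.5 and 305.3 in stromal medium and 58.6, 86.9 and 74.5 in unconditioned medium. Ccl4 had 3463.1, 1887.3 and 3889.4 in adipocyte medium, 527.5, 877.9 and 856.2 in stromal medium and 247.1, 381.6 and 362.6 in unconditioned medium. For both genes no sample of one medium overlapped those of another, and the adipocyte sample of mouse 2 was the lowest of its group. Ccl3 averaged 1677 ± 551 in adipocyte, 270.2 ± 33.5 in stromal and 73.3 ± 14.2 in unconditioned medium, and Ccl4 averaged 3080 ± 1055 in adipocyte, 754 ± 196 in stromal and 330.4 ± 72.8 in unconditioned medium (SD, n = 3 each). Relative to unconditioned medium, the log2 difference of Ccl3 was 4.45 in adipocyte and 1.88 in stromal medium (SE 0.24), and that of Ccl4 was 3.18 and 1.18 (SE 0.27). Between the conditioned media, Ccl3 was higher in adipocyte than in stromal medium by 2.57 (SE 0.24, limma adjusted p = 8.97e-07) and Ccl4 by 2.00 (SE 0.27, limma adjusted p = 1.88e-05). Ccl3 and Ccl4 lie next to each other on chromosome 11, and they share no stretch of 50 bases in their transcripts. Their gene spans overlap, while no overlap of their exons was found in GENCODE M21.

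Xcl1, which attracts the dendritic cells that carry its receptor XCR1, had 1603.6, 799.2 and 1005.3 normalized counts in adipocyte medium, 502.5, 505.2 and 403.5 in stromal medium and 374.2, 365.1 and 380.3 in unconditioned medium. Adipocyte medium was above both other groups, with mouse 1 far above the other mice, and stromal medium was above unconditioned medium by a small margin. The means in adipocyte, stromal and unconditioned medium were 1136 ± 418, 470.4 ± 57.9 and 373 ± 7.66 (SD, n = 3 each). The log2 difference from unconditioned medium was 1.54 in adipocyte and 0.33 in stromal medium (SE 0.21). Xcl1 was higher in adipocyte than in stromal medium by 1.22 (SE 0.21, limma adjusted p = 0.000118). A share of 18.7% of its exon bases, 98 bases, overlaps the gene model Gm20743 on the opposite strand, and the libraries do not keep strand, so reads there cannot be told apart.

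**Figure D1:**
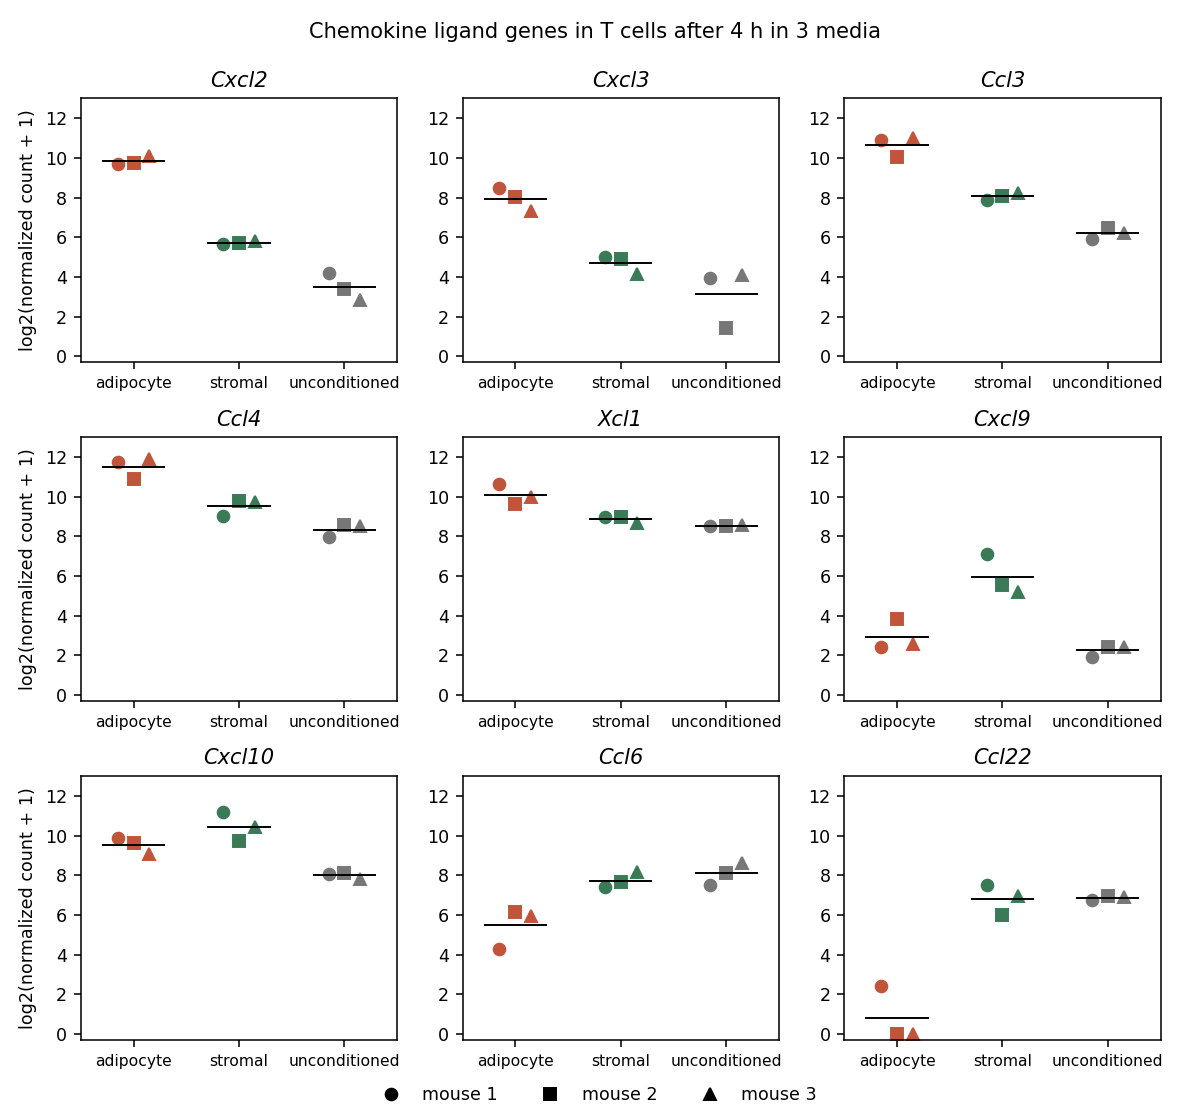
Level of each of the 9 chemokine ligand genes, as log2(normalized count + 1), in adipocyte, stromal and unconditioned medium. Points are samples, shaped by mouse, and bars are means of 3. Cxcl2, Cxcl3, Ccl3, Ccl4 and Xcl1 are highest in adipocyte medium, Cxcl9 and Cxcl10 have their highest means in stromal medium, and Ccl22 is lowest in adipocyte medium.

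Cxcl9 and Cxcl10, ligands of CXCR3 that are known to be induced by interferon gamma, had their highest means in stromal medium. Cxcl9 had 4.31, 13.5 and 4.88 normalized counts in adipocyte medium, 138.6, 45.5 and 35.9 in stromal medium and 2.86, 4.35 and 4.43 in unconditioned medium. Stromal medium was above both other groups in every sample, with mouse 1 highest, and adipocyte and unconditioned medium overlapped. Mean counts in adipocyte, stromal and unconditioned medium were 7.57 ± 5.15, 73.3 ± 56.7 and 3.88 ± 0.886 (SD, n = 3 each), and the adipocyte and unconditioned means rest on 23 and 12 reads. The log2 difference from unconditioned medium was 0.67 in adipocyte and 3.69 in stromal medium (SE 0.58). Cxcl9 was lower in adipocyte than in stromal medium, at -3.02 (SE 0.58, limma adjusted p = 0.000338), and at -2.17 (limma adjusted p = 0.0105) without mouse 1 in every group.

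Cxcl10 had 955.0, 792.0 and 527.6 normalized counts in adipocyte medium, 2351.3, 838.3 and 1371.0 in stromal medium and 262.8, 278.1 and 226.0 in unconditioned medium. Both conditioned media were above unconditioned medium in every sample, and they overlapped each other, since the stromal sample of mouse 2 lay below the adipocyte sample of mouse 1. The means in adipocyte, stromal and unconditioned medium were 758 ± 216, 1520.2 ± 767 and 256 ± 26.8 (SD, n = 3 each), with log2 differences from unconditioned medium of 1.53 in adipocyte and 2.45 in stromal medium (SE 0.31). Cxcl10 was lower in adipocyte than in stromal medium, at -0.92 (SE 0.31, limma adjusted p = 0.0129), and the within-mouse differences were -1.30, -0.08 and -1.38. This call was lost under both rescalings, at -0.35 (limma adjusted p = 0.309) by median-of-ratios and -0.61 (limma adjusted p = 0.0743) by TMM, and also without the stromal sample of mouse 1, at -0.54 (limma adjusted p = 0.0637), and without the adipocyte sample of mouse 3, at -0.68 (limma adjusted p = 0.0579).

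The Cxcl10 promoter is shown because it holds the widest set of the motifs searched. Its RefSeq window lies at chr5:92348840-92349139 on the minus strand (GRCm38.p6) and is written in the direction of the gene, with capitals as for Cxcl2 and Cxcl3.
Cxcl10: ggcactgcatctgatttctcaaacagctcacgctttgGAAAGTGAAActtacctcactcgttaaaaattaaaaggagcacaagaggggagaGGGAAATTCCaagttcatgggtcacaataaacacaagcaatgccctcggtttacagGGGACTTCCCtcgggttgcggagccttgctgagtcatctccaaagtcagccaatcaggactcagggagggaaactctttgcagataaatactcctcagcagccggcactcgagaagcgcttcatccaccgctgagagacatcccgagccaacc
The first capitals are the interferon-stimulated core, 213 bases before the start, which was in 1 of the 8 windows and in 3.44% of all windows. The other capitals are NF-kB consensus matches 159 and 103 bases before the start. The gamma-activated site was in 0 of the 8 windows and in 8.3% of all. An AP-1 site (TGANTCA) was in the windows of Cxcl10 and Cxcl9, 2 of 8, against 7.81% of all, and an NFAT core (TGGAAA) was in those of Cxcl10 and Cxcl2, 2 of 8, against 21.4% of all. The NFAT core of Cxcl10 overlaps the interferon-stimulated core. Absence of a match says only that these letters are not in the window. Art3 is the 1 protein-coding gene between Cxcl9 and Cxcl10 in RefSeq's order, and 133 exon bases of Cxcl10 (5.91%) overlap Art3 on the opposite strand, where reads cannot be told apart.

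Ccl6, a CC chemokine of mouse myeloid cells, and Ccl22, a ligand of CCR4 known from dendritic cells and macrophages, had their lowest values in adipocyte medium. Ccl6 had 18.7, 71.1 and 61.6 normalized counts in adipocyte medium, 166.9, 201.2 and 281.4 in stromal medium and 184.3, 279.0 and 390.0 in unconditioned medium. Ccl22 had 4.31, 0 and 0 in adipocyte medium, 180.3, 62.0 and 120.9 in stromal medium and 105.7, 121.7 and 118.8 in unconditioned medium. For both genes adipocyte medium was below both other groups in every sample, while stromal and unconditioned medium overlapped.

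Ccl6 averaged 50.4 ± 27.9 in adipocyte, 216.5 ± 58.7 in stromal and 284 ± 103 normalized counts in unconditioned medium (SD, n = 3 each). Its log2 difference from unconditioned medium was -2.61 in adipocyte and -0.36 in stromal medium (SE 0.44), and it was lower in adipocyte than in stromal medium, at -2.25 (SE 0.44, limma adjusted p = 0.000357). Without the adipocyte sample of mouse 1, which had 13 reads, the adipocyte differences were -2.02 from unconditioned and -1.66 from stromal medium (limma adjusted p = 0.000406 for the comparison with stromal medium).

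Ccl22 rested on 3 reads in adipocyte medium, against 411 in stromal and 348 in unconditioned medium. The 0 reads in mice 2 and 3 each allow up to 3 reads, by counting error only. The depth-adjusted ratio of adipocyte to unconditioned medium was 0.00907 (95% exact interval 0.00186 to 0.0267), and that of adipocyte to stromal medium was 0.00916 (95% exact interval 0.00188 to 0.0269), both intervals covering counting error only. On the log2(value + 1) scale, Ccl22 was lower in adipocyte than in stromal medium, at -6.00 (SE 0.60, limma adjusted p = 1.46e-06). The fitted size depends on the pseudocount, with -8.29 at 0.1 and -3.43 at 10, and it was -6.80 without the adipocyte sample of mouse 1 (limma adjusted p = 3.57e-07). Stromal and unconditioned medium had nearly the same mean, 121.1 ± 59.1 in stromal and 115 ± 8.52 in unconditioned medium, and the within-mouse log2 differences of 0.76, -0.96 and 0.03 had no common sign. The fitted difference between stromal and unconditioned medium was -0.06 with the authors' scaling and 0.30 with median-of-ratios scaling.

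Most of the listed markers of myeloid cells were lowest in adipocyte medium, as were Ccl6 and Ccl22. Of 18 macrophage and monocyte markers, 5 are in the table (Adgre1, Cd14, Csf1r, Fcgr3 and Lyz2), and their summed normalized counts were 474.6 to 820.7 in adipocyte, 3271 to 8211 in stromal and 3234 to 6712 in unconditioned medium. Of 12 dendritic cell markers, 6 are in the table (Cd209a, Clec9a, Flt3, Siglech, Sirpa and Xcr1), with sums of 447.5 to 553.7 in adipocyte, 827 to 896 in stromal and 910 to 1105 in unconditioned medium. Between adipocyte and stromal medium, 4 of the 5 and 4 of the 6 were lower at a limma adjusted p under 0.05 and 0 were higher, while 57.2% of all tested genes were lower. With either rescaling, 3 of the 5 and 4 of the 6 were lower and 0 and 1 higher. Cd14 and Xcr1 stood apart from the rest of their lists. Cd14 averaged 171 ± 92.1 in adipocyte, 525 ± 237 in stromal and 131 ± 53.1 normalized counts in unconditioned medium, and Xcr1, at 386.5 ± 71.0 in adipocyte, 331.3 ± 79.7 in stromal and 132.5 ± 28.0 in unconditioned medium (SD, n = 3 each), had the largest share of the adipocyte dendritic sum. None of these 11 markers was at 0 in the whole of any group. B cell markers moved likewise, with 8 of 16 listed and sums of 3878 to 5415 in adipocyte, 10971 to 16527 in stromal and 10451 to 13468 in unconditioned medium. The part of these cells in the values of Ccl6 and Ccl22 was not tested.

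Beside the ligands that were higher in adipocyte medium, the sum of 6 of 12 neutrophil markers (Csf3r, Cxcr2, Il1r2, Mmp9, Ngp and S100a8) was 1746 to 2269 in adipocyte, 810 to 1523 in stromal and 837 to 1436 in unconditioned medium. The higher sum in adipocyte medium came with Il1r2, which is also known from T cells and averaged 1666 ± 389 in adipocyte, 367 ± 14.2 in stromal and 345 ± 33.4 in unconditioned medium (SD, n = 3 each). Of the other 5 markers, Ngp had its highest mean in adipocyte medium and Csf3r, Cxcr2, Mmp9 and S100a8 had their lowest mean there. Between adipocyte and stromal medium, 1 of the 6 was higher (Il1r2) and 3 were lower, or 2 and 4 with the replicate block and 1 and 2 with median-of-ratios scaling. Among all tested genes 33.8% were higher and 57.2% lower in this comparison with the authors' scaling. S100a8, the defining marker among them, averaged 102.7 ± 49.2 in adipocyte, 421.2 ± 188 in stromal and 265.6 ± 150.0 in unconditioned medium (SD, n = 3 each). The sum of 4 of 11 natural killer cell markers was 2723 to 4991 in adipocyte, 4046 to 4903 in stromal and 5111 to 5874 in unconditioned medium. These markers were split between adipocyte and stromal medium, with 2 higher in adipocyte medium (Klre1 and Prf1) and 2 lower (Nkg7 and Tyrobp). The same shares of all tested genes stand beside these counts, and nothing is read from the counts of either marker list. None of 12 stromal and adipocyte markers is in the table. The part of these cells in the chemokine values was not tested.

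**Figure D2:**
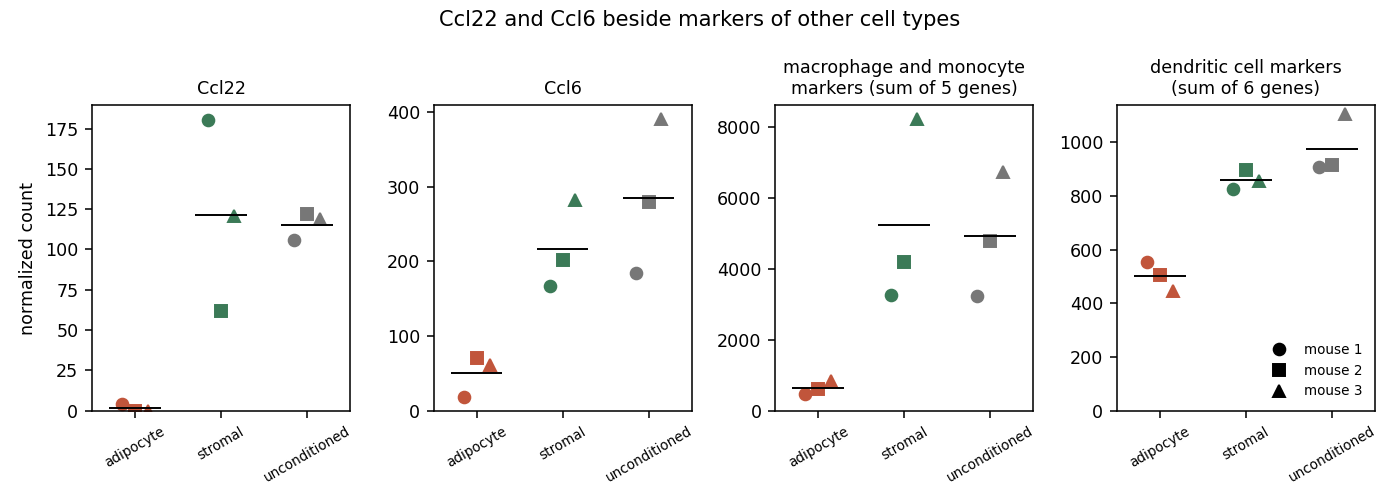
Normalized counts of Ccl22 and Ccl6 by medium beside the summed counts of 5 macrophage and monocyte markers and of 6 dendritic cell markers. Points are samples, shaped by mouse, and bars are means of 3; in each panel the adipocyte samples lie below all stromal and unconditioned samples.

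Across the comparison of adipocyte with stromal medium, 5 of the 9 chemokine genes were higher (Cxcl2, Cxcl3, Ccl3, Ccl4 and Xcl1) and 4 lower (Cxcl9, Cxcl10, Ccl6 and Ccl22) at a limma adjusted p under 0.05. Among all tested genes 33.8% were higher, 57.2% lower and 91% changed in either direction, so the count of called chemokine genes is near the background. The selection used the samples of this comparison too, so nothing is read from that count. With median-of-ratios scaling, 1172 of all genes were higher and 1091 lower, against 968 and 1641 with the authors' scaling, and the chemokine genes stood at 5 higher and 3 lower, Cxcl10 being the one lost. The log2 differences ran between -6.00 and 4.12, and the middle 90% of all tested genes lay between -2.36 and 1.91. Groups did not overlap for 8 of the 9 chemokine genes, all but Cxcl10, against 89.6% of all tested genes. For adipocyte against unconditioned medium, which the selection used, groups did not overlap for 8 of 9, all but Cxcl9, against 97% of tested genes, and for stromal against unconditioned medium for 7 of 9, all but Ccl6 and Ccl22, against 69.4%. The middle 90% of log2 differences of all tested genes lay between -2.63 and 2.35 in adipocyte and between -1.34 and 1.36 in stromal medium, each against unconditioned medium.

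**Figure D3:**
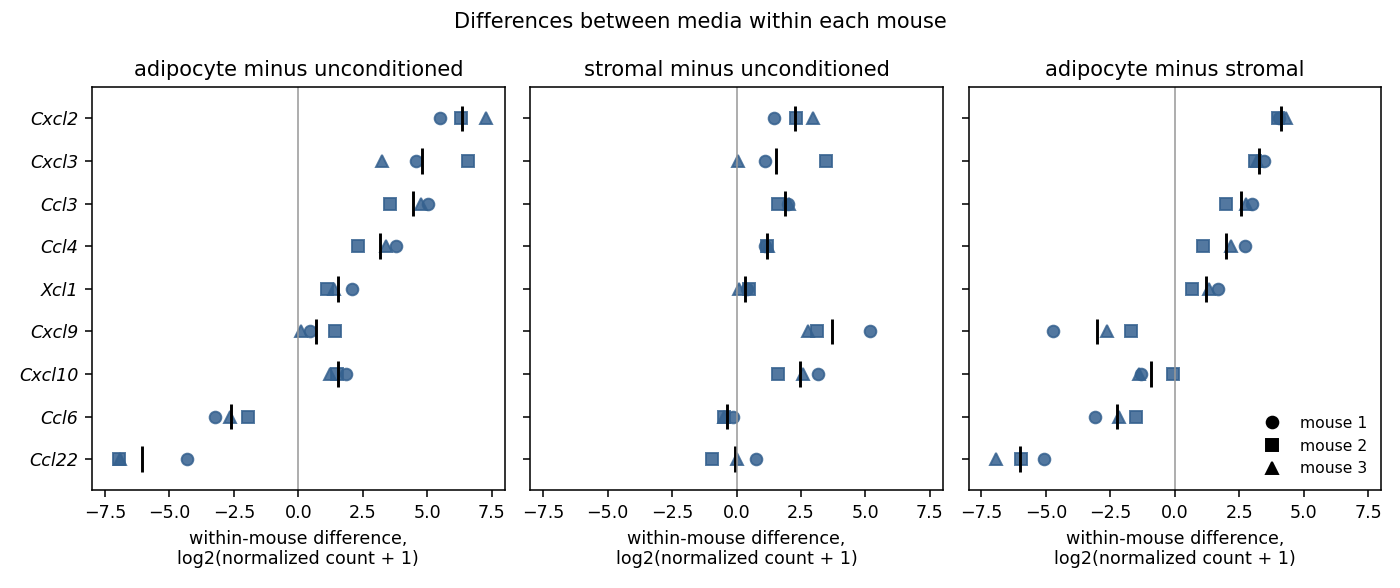
Differences between media within each mouse, in log2(normalized count + 1), for adipocyte minus unconditioned, stromal minus unconditioned and adipocyte minus stromal medium. Each point is a mouse and the black bar is the mean of 3; Cxcl2, Cxcl3, Ccl3, Ccl4 and Xcl1 lie right of 0 in every mouse in the adipocyte panels, and Cxcl9 and Cxcl10 lie left of 0 against stromal medium.

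Differences between media also varied from mouse to mouse, with 1 library per mouse and medium, so a mouse and its library cannot be told apart. The adipocyte difference from unconditioned medium was 5.02, 3.57 and 4.77 for Ccl3, 3.80, 2.30 and 3.42 for Ccl4, 2.10, 1.13 and 1.40 for Xcl1 and -3.23, -1.96 and -2.64 for Ccl6 in mice 1, 2 and 3. In each of these 4 genes mouse 2 had the smallest difference and mouse 1 the largest. The other 5 genes did not follow that order. The adipocyte difference was 5.50, 6.33 and 7.27 for Cxcl2, 4.55, 6.57 and 3.24 for Cxcl3 and -4.33, -6.94 and -6.90 for Ccl22. It was 0.46, 1.44 and 0.12 for Cxcl9 and 1.86, 1.51 and 1.22 for Cxcl10. For Cxcl9 and Cxcl10 the stromal difference from unconditioned medium was largest in mouse 1, at 5.18, 3.12 and 2.77 for Cxcl9 and 3.16, 1.59 and 2.60 for Cxcl10.

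Levels of different genes can be compared only per length, so normalized counts were divided by the exon length of each gene. Summed over the 9 genes, the per-length level was 9916 ± 2855 normalized counts per kb in adipocyte, 3299 ± 84.8 in stromal and 1641 ± 171 in unconditioned medium (SD, n = 3 each). The 9 genes were selected for a change against unconditioned medium, and the other listed ligands have no value. The order of media in this sum thus describes the selected genes only, and nothing is read from it about ligands as a whole. Ccl4 had the highest per-length level in adipocyte medium, 4667 ± 1598, followed by Ccl3 with 2189 ± 720 and Xcl1 with 2172 ± 799, and the last 2 did not differ beyond their spread. In stromal medium Ccl4 had 1142 ± 297, Xcl1 899 ± 111 and Cxcl10 675 ± 341 per kb, each within the spread of its neighbour. In unconditioned medium Xcl1 was highest, with 714 ± 14.7 per kb, above Ccl4 with 501 ± 110.

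The makeup of the summed per-length level, over these selected genes only, differed between media. Xcl1 made up 22.0% ± 4.64 in adipocyte, 27.3% ± 3.65 in stromal and 43.8% ± 4.98 in unconditioned medium, although its own level was highest in adipocyte medium. Ccl3 made up 21.9% ± 1.58 in adipocyte, 10.7% ± 1.37 in stromal and 5.80% ± 0.675 in unconditioned medium. Cxcl10 made up 3.66% ± 1.62 in adipocyte, 20.3% ± 9.86 in stromal and 6.99% ± 1.18 in unconditioned medium. Cxcl2, with the largest ratio to unconditioned medium, made up 4.75% ± 1.41 of the adipocyte sum. Cxcl9 made up at most 1.37% of the sum in any sample.

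**Figure D4:**
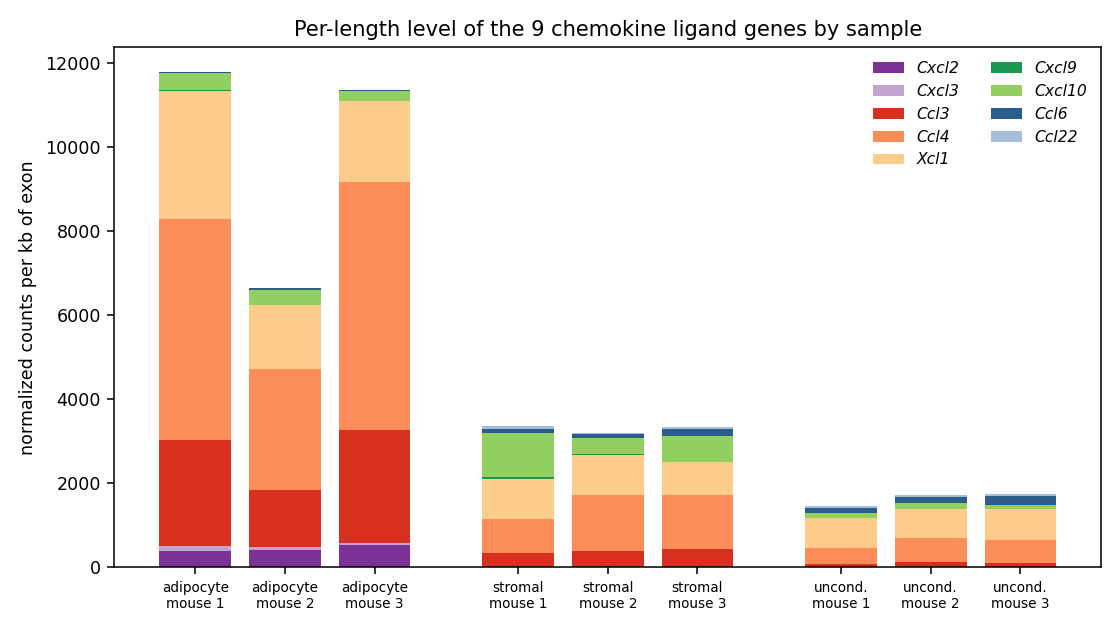
Normalized counts per kb of exon of the 9 chemokine ligand genes, stacked for each of the 9 samples. Adipocyte samples reach 11772, 6629 and 11348 in total, stromal samples 3365, 3203 and 3328 and unconditioned samples (uncond.) 1445, 1728 and 1751, and Ccl4, Ccl3 and Xcl1 make up most of each adipocyte bar.

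Across the 9 samples, Pearson's r was 0.99 between Ccl3 and Ccl4, 0.97 between Ccl3 and Cxcl2, 0.83 between Cxcl9 and Cxcl10 and 0.78 between Ccl6 and Ccl22, while Cxcl9 with Cxcl2 gave -0.01. The 9 points share 3 media and 3 mice and are not independent, so these values are a description. The authors' deposited clusters place Cxcl2, Cxcl3, Ccl3, Ccl4 and Xcl1 in cluster 1, Ccl6 and Ccl22 in cluster 2 and Cxcl9 and Cxcl10 in cluster 4. Cluster 3, with 226 genes, holds none of the 9.

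The genes outside the family whose log2 values followed each ligand most closely were, over the same 9 samples, Ifng (r = 0.993), Prelid3b and Fam221a for Ccl3 and Angptl2 (r = 0.985), Pm20d1 and Patl1 for Ccl4. For Cxcl2 they were Gzmb (r = 0.993), which encodes granzyme B of cytotoxic cells, Pogz and Rbm33, and for Cxcl3 they were Clcn5 (r = 0.980), Fgd6 and Gpbp1. Xcl1 was followed by Hmces (r = 0.978), Plk3 and Hccs. Cxcl10 was followed by Cdkn1c (r = 0.992), Tnfsf4, which encodes the costimulatory ligand OX40L, and Marcksl1, and Cxcl9 by Tnfrsf22 (r = 0.969), Ppa1 and Ccdc102a. Ccl6 was followed by Cd300lb (r = 0.978), Fbxo36 and Clec4a1, and Ccl22 by Pex19 (r = 0.986) and Chpf2. All of these genes are in the same authors' cluster as the ligand they follow, which adds no separate support. Each r is among the highest over many tested genes, all called changed between these media. The top values could be nearly tied, at 0.9927, 0.9917 and 0.9916 for Ccl3, so nothing is read from which gene came first.

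Of 23 chemokine receptor symbols, 8 are in the table, among them Ccr8, Ccr10, Ccrl2, Cxcr2, Cxcr4, Cx3cr1 and Xcr1. Against stromal medium, 4 were higher in adipocyte medium (Ccr8, Ccrl2 and Cxcr4 among them) and 2 lower (Cxcr2 and Cx3cr1) at a limma adjusted p under 0.05, and Ccr10 and Xcr1 did not pass. With either rescaling the counts were 5 and 2. Among all tested genes 33.8% were higher and 57.2% lower in adipocyte than in stromal medium with the authors' scaling, and nothing is read from the receptor counts. Against unconditioned medium, 5 of the 8 were higher and 3 lower in adipocyte medium and 2 higher and 1 lower in stromal medium. Those 2 comparisons chose the genes of the table, and by the same limma test 97.2% of all tested genes were called in adipocyte medium (33.8% higher, 63.4% lower) and 57.7% in stromal medium (21.1% higher, 36.6% lower), so nothing is read from these counts. Cxcr2, the receptor of Cxcl2 and Cxcl3, averaged 9.32 ± 3.15 normalized counts in adipocyte, 86.3 ± 44.5 in stromal and 56.1 ± 26.0 in unconditioned medium (SD, n = 3 each), and was lower in adipocyte than in stromal medium, at -3.00 (SE 0.44, limma adjusted p = 3.64e-05). Adipocyte medium thus had the lowest mean of Cxcr2 and the highest means of both ligands, while Cxcr2 overlapped between stromal and unconditioned medium. Cxcr2 is also 1 of the neutrophil markers above.

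Xcr1, the receptor of Xcl1, averaged 386.5 ± 71.0 in adipocyte, 331.3 ± 79.7 in stromal and 132.5 ± 28.0 normalized counts in unconditioned medium, and adipocyte and stromal medium differed by 0.23 (SE 0.22, limma adjusted p = 0.324). Ccr8, a receptor of T cells, averaged 4753 ± 1333 in adipocyte, 1513 ± 424 in stromal and 1131 ± 40.5 in unconditioned medium, and was higher in adipocyte than in stromal medium by 1.65 (SE 0.20, limma adjusted p = 7.60e-06). Ccr10, a receptor of skin-homing T cells, averaged 19.5 ± 18.2 in adipocyte, 25.5 ± 10.1 in stromal and 83.9 ± 14.2 in unconditioned medium.

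Of 32 genes of chemokine receptor signalling, 9 are in the table, and 5 were higher and 3 lower in adipocyte than in stromal medium, or 7 and 1 with median-of-ratios scaling, against 33.8% higher and 57.2% lower among all tested genes. Against unconditioned medium, 4 were higher and 5 lower in adipocyte medium (97.2% of all tested genes were called), and 3 were higher and 5 lower in stromal medium (57.7% called). Rgs1, which shortens the signal of G proteins behind chemokine receptors, averaged 13477 ± 3079 normalized counts in adipocyte, 5946 ± 942 in stromal and 2931 ± 54.9 in unconditioned medium (SD, n = 3 each). It was higher in adipocyte than in stromal medium by 1.17 (SE 0.15, limma adjusted p = 1.29e-05). Grk6, a kinase that acts on activated receptors, averaged 11767 ± 2899 in adipocyte, 11200 ± 847 in stromal and 25853 ± 2243 in unconditioned medium, with log2 differences from unconditioned medium of -1.16 in adipocyte and -1.21 in stromal medium.

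Genes of the pathways known to act upstream of these ligands were taken from lists. Of 12 tested genes of the interferon gamma axis (18 listed), 4 were higher and 6 lower in adipocyte than in stromal medium, or 6 and 4 with either rescaling, against 33.8% higher and 57.2% lower among all tested genes. Against unconditioned medium, 7 were higher and 2 lower in adipocyte medium (33.8% and 63.4% of all tested genes), and 9 were higher and 1 lower in stromal medium (21.1% and 36.6% of all tested genes). Nothing is read from those counts, since 7 of the 12 are in the authors' adipocyte table and 9 in their stromal table. Ifng, which encodes interferon gamma, averaged 1809 ± 273 normalized counts in adipocyte, 354 ± 30.6 in stromal and 116 ± 17.7 in unconditioned medium (SD, n = 3 each). Ifng was higher in adipocyte than in stromal medium by 2.34 (SE 0.16, limma adjusted p = 8.43e-08). Ccl3 and Ccl4 had the same order of media as Ifng, and Cxcl9 and Cxcl10, with their highest means in stromal medium, did not.

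Of 7 tested genes of the NF-kB axis (19 listed), 7 were higher and 0 lower in adipocyte than in stromal medium, with a median log2 difference of 0.84, against 33.8% higher and 57.2% lower among all tested genes. Nfkb1, a subunit of the factor, averaged 13739 ± 1795 in adipocyte, 8024 ± 548 in stromal and 5659 ± 247 normalized counts in unconditioned medium, and Tnf, a cytokine that activates it, averaged 1663 ± 397 in adipocyte, 965 ± 93.8 in stromal and 635 ± 14.9 in unconditioned medium (SD, n = 3 each). Of 13 tested factors of T cell activation (27 listed), 13 were higher and 0 lower in adipocyte than in stromal medium, with a median of 1.73. Of 19 tested genes of other secreted cytokines (33 listed), 17 were higher and 1 lower, with a median of 2.49, and Csf2, which encodes the growth factor GM-CSF, averaged 204.6 ± 70.5 in adipocyte, 18.8 ± 6.03 in stromal and 4.25 ± 5.36 in unconditioned medium. The median of all tested genes was -0.60 in this comparison. Against unconditioned medium, 7 NF-kB genes, 13 activation factors and 18 cytokines were higher in adipocyte medium, with 1 cytokine lower, and 3, 3 and 9 were higher in stromal medium, with 1 cytokine lower. Of the NF-kB, activation and cytokine genes, all are in the authors' adipocyte table. Their change against unconditioned medium, in either direction, was thus part of the selection. The authors' stromal table holds 0 of the 7, 0 of the 13 and 2 of the 19. The comparison with stromal medium uses the same adipocyte samples, so nothing is read from the counts of either adipocyte comparison.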

How the data were processed

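RNA-seq of 9 samples was analysed, 3 mice in each of 3 media. Per the labels, cDNA was made with SMART-seq v4 and libraries with Nextera XT. Per the submitters' processing notes, reads went through FastQC, Trimmomatic, featureCounts and DESeq2, with no version listed. The same notes list GRCm39 beside 2 names of a human build, GRCh38 and hg38, and do not say what each was for. The sources used here name no aligner, annotation or strand setting. The authors deposited a normalized signal per gene, which is read counts divided by 1 size factor per sample, since 100% of values came out as whole reads within 0.001. Per the file headers, the authors' tables also hold a log2 fold change, a Wald score and a p-value, which tests a change beyond 1.5-fold, and a cluster number.

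With a pseudocount of 1, the log2 values of 2868 genes (mean 1 or more) entered 1 limma-trend fit of all 9 samples by medium (limma 3.58.1 under R 4.3.3). For genes with low values, log2 differences on this scale are too small. The p-values are two-sided with Benjamini-Hochberg adjustment over all tested genes and a threshold of 0.05. An exact permutation test of 3 against 3 samples cannot reach this threshold, so none was made. The count test planned for raw counts was replaced by limma, as planned for normalized values. On the recovered reads, edgeR 4.0.16 and DESeq2 1.42.0 served as alternatives. The chemokine genes and all gene lists were chosen with earlier results of these data known. The text names every chemokine gene, the 3 genes outside the family with the highest Pearson's r to each over the 9 samples, the 3 list members furthest from unconditioned medium with 1 sign in all mice, and defining markers, and a few genes that this rule would name are not reported here. Receptors of the described ligands and a few list members were added after their values were seen.

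Replicate numbers mark the same mouse in the labels, which pairs the samples. The correlation of deviations of same-numbered samples ran between -0.12 and 0.26. Replicates differed beyond sampling noise, with chi-square per degree of freedom between 10.2 and 96.7. Exon lengths are unions from GENCODE M21 (GRCm38) and promoter sequences are from RefSeq (GRCm38.p6), which is not the mouse build the notes name, so the sequences are not read from the authors' coordinates. Intervals and floors cover counting error only, since reads without molecular identifiers are not independent molecules. Figures were drawn with matplotlib 3.10.9.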

Additional observations from a re-analysis of the deposited data

How the results depend on the processing

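The selection also used the samples of adipocyte against stromal medium. In this comparison, 8 of the 9 chemokine genes kept their direction and their side of the threshold under each alternative run. These were pseudocounts of 0.1 and 10, no filter and a mean of at least 50 (where Cxcl9 was not tested), 2 rescalings, a replicate block by mouse, edgeR, DESeq2 and leaving out samples or mice. The exception was Cxcl10, whose adjusted p ran between 0.000887 and 0.309. Besides the 4 cases above, it lost its call without mouse 3 in every group, at -0.69 (limma adjusted p = 0.103), and the cause was not tested. With the replicate block it was -0.92 (limma adjusted p = 0.00479), and the block changed no call among the 9. Counts of genes past the threshold under the replicate block were 2788 for adipocyte and 1665 for stromal medium, each against unconditioned medium, and 2619 for adipocyte against stromal medium, compared with 2787, 1655 and 2609 without it. With the median-of-ratios rescaling, 1047 genes were lower in adipocyte than in unconditioned medium, against 1818, and in stromal against unconditioned medium 1129 were higher and 562 lower, against 606 and 1049. Cxcl3 depended on single mice: against unconditioned medium it was 3.90 in adipocyte and 0.58 in stromal medium without mouse 2, and 5.56 and 2.28 without mouse 3. Depth limits Cxcl9 and Ccl22, each with under 30 reads in adipocyte medium.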
